A study of Homo sapiens with 10 samples.

Results

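The experiment set the response to sorafenib of a hepatocarcinoma line labelled shRb against that of Huh7 cells. The quantity examined was the sorafenib effect in shRb (sorafenib minus control, on the log2 scale) minus the same effect in Huh7, and all 10 of the 10 arrays of the series entered it. RNA came from shRb cells exposed to 10 μM sorafenib for 9 h (n = 3, replicates 10, 11 and 12), shRb cells with no treatment (n = 3, replicates 7, 8 and 9), Huh7 cells with the same sorafenib exposure (n = 2, replicates 5 and 6) and Huh7 cells with no treatment (n = 2, replicates 1 and 3). A positive difference means a higher value of the sorafenib effect in shRb, whether through a greater rise or a weaker fall. Huh7 is an established line from a human hepatocellular carcinoma (HCC). The labels do not say how the shRb line was made, from which cells, or whether it is 1 clone. They give no vehicle for the control cells, and which samples shared an array strip is not stated in the sources used here, so its part in the differences was not tested. Both Huh7 sorafenib samples carry the label of a second replicate. They were taken as separate samples because their values differed like those of other replicates. Such values cannot tell 2 cultures from 2 preparations of 1 culture, so this group may rest on 1 culture.

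RB1, which encodes the retinoblastoma protein, was read first as a check of the labels. Its log2 values were 6.12, 5.56 and 5.35 in shRb cells with sorafenib and 5.56, 5.94 and 5.92 in shRb controls, against 7.94 and 8.07 in Huh7 cells with sorafenib and 8.18 and 7.99 in Huh7 controls. All 6 shRb arrays lay below all 4 Huh7 arrays, by 2.33 with sorafenib and 2.28 without it on the log2 scale (adjusted p = 6.7e-04 and 0.001, limma). The sorafenib effect on RB1 differed by -0.05 between the lines (95% interval -0.73 to 0.62). Replicates of a group correlated at 0.984 to 0.990 over all clusters, and arrays of different groups reached 0.987. Of 10 hepatocyte and 5 endothelial markers, none had a difference in sorafenib effect at an unadjusted p under 0.05, and 1 of 7 fibroblast or stellate markers had a larger value in shRb. A smaller value was found at that p for 2 of 6 leukocyte markers and 2 of 5 biliary markers, and none of all these markers was called. The biliary markers had a median difference of -0.41, with SPP1 at -0.67 and EPCAM at -0.42.

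Sorafenib inhibits RAF and receptor tyrosine kinases, and so lowers signalling through MEK and ERK. The retinoblastoma protein restrains E2F factors, which drive genes of DNA replication. YAP is a coactivator that enters the nucleus in spread cells under tension, binds TEAD factors and raises genes of the cytoskeleton, matrix and growth signalling. Metallothioneins are small proteins that bind zinc and copper, and their genes are induced by metals through the factor MTF1 and its metal response elements.

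The 2 genes with the largest called rise in shRb over Huh7 were metallothioneins, and the genes called the other way included MYOF and EDN1, targets of YAP and TEAD. Upstream sequences of 2 metallothionein genes and 2 targets of YAP and TEAD are shown, from RefSeq (GRCh38.p14), as the 250 bases before the gene start in the direction of transcription. In the first pair, capitals mark the core of the metal response element (TGCACNC or TGCGCNC, on either strand), and no printed matches overlapped. MT1B lies on the plus strand at chr16:56651636-56651885 and MT1H on the plus strand at chr16:56669564-56669813. They are set side by side because the 2 genes, within the same cluster of metallothionein genes, differed in how far their sorafenib effects diverged between the lines.
MT1B: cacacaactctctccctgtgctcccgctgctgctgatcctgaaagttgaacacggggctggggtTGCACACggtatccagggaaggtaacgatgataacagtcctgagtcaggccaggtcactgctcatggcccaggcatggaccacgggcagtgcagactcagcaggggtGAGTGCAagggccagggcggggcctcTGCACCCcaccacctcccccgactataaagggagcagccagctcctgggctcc
MT1H: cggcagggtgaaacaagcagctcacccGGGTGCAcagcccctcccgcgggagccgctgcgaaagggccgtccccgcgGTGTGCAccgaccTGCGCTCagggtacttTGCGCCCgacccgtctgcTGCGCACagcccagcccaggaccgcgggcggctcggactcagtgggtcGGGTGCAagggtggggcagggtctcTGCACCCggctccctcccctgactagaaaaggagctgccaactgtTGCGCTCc
The stretch of MT1B held 3 matches and that of MT1H held 8. At least 1 match was present in 24.83% of the 35116 stretches of this length in the RefSeq table, and in all 5 of the metallothionein genes that the table held. The core of the antioxidant response element (TGACNNNGC, on either strand) was also searched and is not marked. MT1B held 1 match of it and MT1H held 0. It was present in 10.91% of all stretches, in 3 of the 5 metallothionein genes and in 4 of the 15 genes called below that had a stretch.

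In the second pair, capitals mark GGAATG, the core bound by TEAD factors, searched on both strands. CCN2 lies on the minus strand at chr6:131951373-131951622 and ANKRD1 on the minus strand at chr10:90921088-90921337. They were chosen, after their values were seen, as familiar YAP targets with sorafenib effects of opposite sign.
CCN2: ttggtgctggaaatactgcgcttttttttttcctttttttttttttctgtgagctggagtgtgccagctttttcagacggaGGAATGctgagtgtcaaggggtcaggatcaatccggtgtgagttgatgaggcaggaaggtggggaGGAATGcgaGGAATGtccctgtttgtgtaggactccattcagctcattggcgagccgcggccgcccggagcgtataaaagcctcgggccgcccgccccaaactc
ANKRD1: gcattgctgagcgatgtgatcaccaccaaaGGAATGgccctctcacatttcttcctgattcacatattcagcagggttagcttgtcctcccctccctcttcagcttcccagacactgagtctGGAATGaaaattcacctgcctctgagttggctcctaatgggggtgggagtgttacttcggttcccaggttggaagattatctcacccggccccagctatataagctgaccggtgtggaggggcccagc
CCN2 held 3 matches and ANKRD1 held 2, and 11.89% of all stretches held at least 1. Of the 17 genes of the YAP and TEAD list with a stretch in the table, 7 held a match, against 1 (UBD) of 15 among the genes called below. A match is a description of these letters and not a binding site.

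Few differences between the lines passed the threshold. Of the 53617 transcript clusters (groups of probes that stand for a gene or another RNA), 5 had a larger value of the sorafenib effect in shRb (0.00933%) and 21 a smaller one (0.0392%) at an adjusted p under 0.05 from limma. At an unadjusted p under 0.05 the numbers were 2053 and 1936. Among the 22356 genes with a cluster of their own, 3 had a larger value (0.0134%) and 16 a smaller one (0.0716%). The numbers at an unadjusted p under 0.05 were 845 (3.78%) and 1132 (5.06%). These shares of all genes are the background for the counts of every gene list below. In the separate effects, 663 genes rose (2.97%) and 837 fell (3.74%) in shRb, and 225 rose (1.01%) and 199 fell (0.89%) in Huh7, where 2 arrays per group stood against 3. Counts within 1 line therefore do not show which line responded more. The number of differing clusters depended on single arrays, with 3 left without Huh7 control replicate 1 or Huh7 sorafenib replicate 5, 5 without Huh7 control replicate 3 and 8 without Huh7 sorafenib replicate 6. It was 8, 13 and 12 without shRb control replicates 7, 8 and 9, and 20, 12 and 17 without shRb sorafenib replicates 10, 11 and 12.

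Across genes, the sorafenib effects of both lines ran broadly the same way. Over the 22356 genes the effects correlated at Pearson's r = 0.51 (Spearman's rho = 0.34), a description across genes, which are not independent replicates and share the arrays. From the lower to the upper 5% of genes the differences ran between -0.48 and 0.45 (log2), around a median of -0.02, while 73 genes differed by more than 1 and 84 by less than -1. Among the 930 genes whose mean response over both lines rose, 62.8% rose further in shRb, and among the 1174 whose mean response fell, 62.95% fell further in shRb. That mean gave shRb a weight of 0.6, which favours genes that respond in shRb. With equal weights, the shares were 55.9% of 830 genes and 56.05% of 1024, and over all clusters 53.82% of 1544 and 46.9% of 2405. The share therefore turned on the weights and on which clusters were counted, and no greater response of either line is read from it.

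**Figure D1:**
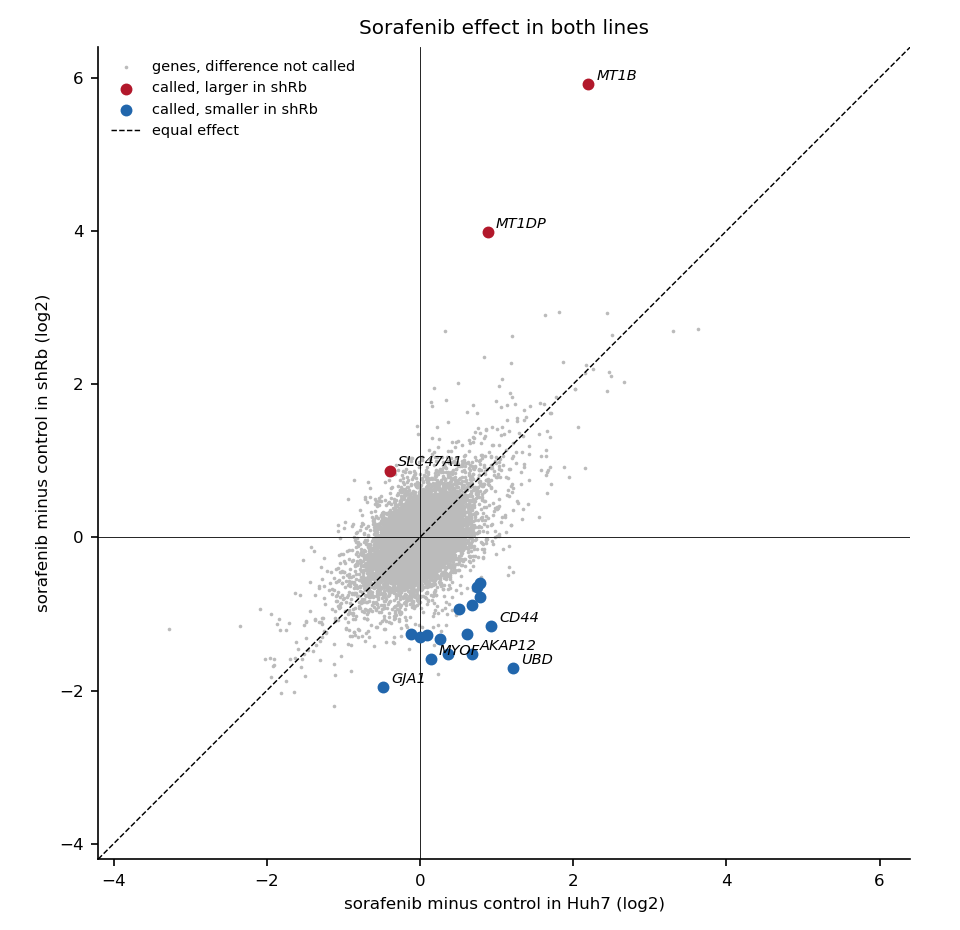
Sorafenib effect (sorafenib minus control, log2) in shRb on the vertical axis against that in Huh7 on the horizontal axis for 22356 genes, with the genes called for a difference in colour and the line of equal effect dashed. MT1B, MT1DP and SLC47A1 lie above the line, and the 16 genes below it all have negative effects in shRb.

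Among genes with a cluster of their own, MT1B, a metallothionein, had the largest difference. Its values were 9.31, 9.55 and 9.91 in shRb cells with sorafenib and 3.73, 3.52 and 3.77 in shRb controls, against 5.68 and 6.01 in Huh7 cells with sorafenib and 3.67 and 3.63 in Huh7 controls. The controls of both lines overlapped, and every sorafenib array lay above every control array. MT1B rose 60.3-fold in shRb and 4.59-fold in Huh7, and the log2 effects differed by 3.71 (SE 0.25, adjusted p = 0.0033, limma). MT1DP, a metallothionein pseudogene, had values of 8.26, 8.29 and 8.66 in shRb cells with sorafenib and 4.39, 4.54 and 4.31 in shRb controls, against 4.28 and 4.50 in Huh7 cells with sorafenib and 3.69 and 3.33 in Huh7 controls. Its sorafenib-exposed shRb arrays stood apart from all others, and the rise was 15.9-fold in shRb and 1.84-fold in Huh7 (difference 3.11, SE 0.23, adjusted p = 0.0033, limma). Both calls held without any single array. MT1B and MT1DP lie near each other on chromosome 16 and belong to a family of close copies, so probes of one cluster may also take up RNA of another, which was not tested.

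The other metallothionein genes did not follow them. Of 15 measured, 2 had a larger value of the effect in shRb and none a smaller one at the adjusted threshold, and at an unadjusted p under 0.05 the numbers were 2 and 5, with a median difference of -0.06 against -0.02 over all genes. Without Huh7 control replicate 1 or Huh7 sorafenib replicate 6, 2 had a smaller value at that p. At an adjusted p under 0.05 (limma), sorafenib raised 8 of them in shRb and 10 in Huh7. At that threshold 9 were higher in shRb controls than in Huh7 controls, so that most started from a higher value in shRb. Over all 22356 genes, 229 were higher and 120 lower in shRb controls than in Huh7 controls. MT1G was at 10.38, 10.41 and 10.59 in shRb cells with sorafenib and 9.60, 9.53 and 9.49 in shRb controls, against 9.15 and 9.52 in Huh7 cells with sorafenib and 7.31 and 7.59 in Huh7 controls. The groups did not overlap within either line, and MT1G rose by 0.92 in shRb and by 1.88 in Huh7 (log2), and the difference of -0.96 had an adjusted p of 0.21 (limma). MT1X, MT1F, MT1M and MT2A had differences of -0.62, -0.63, -0.59 and -0.49, none of them called. MT1H, MT1E and MT1L rose by nearly the same step in both lines, with differences of 0.12 (95% interval -0.31 to 0.55), 0.06 (-0.32 to 0.44) and -0.06 (-0.62 to 0.50). MT1JP, MT1IP, MT1CP, MT3 and MT4 differed by 0.61, 0.40, -0.23, -0.34 and -0.02, and none was called.

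**Figure D2:**
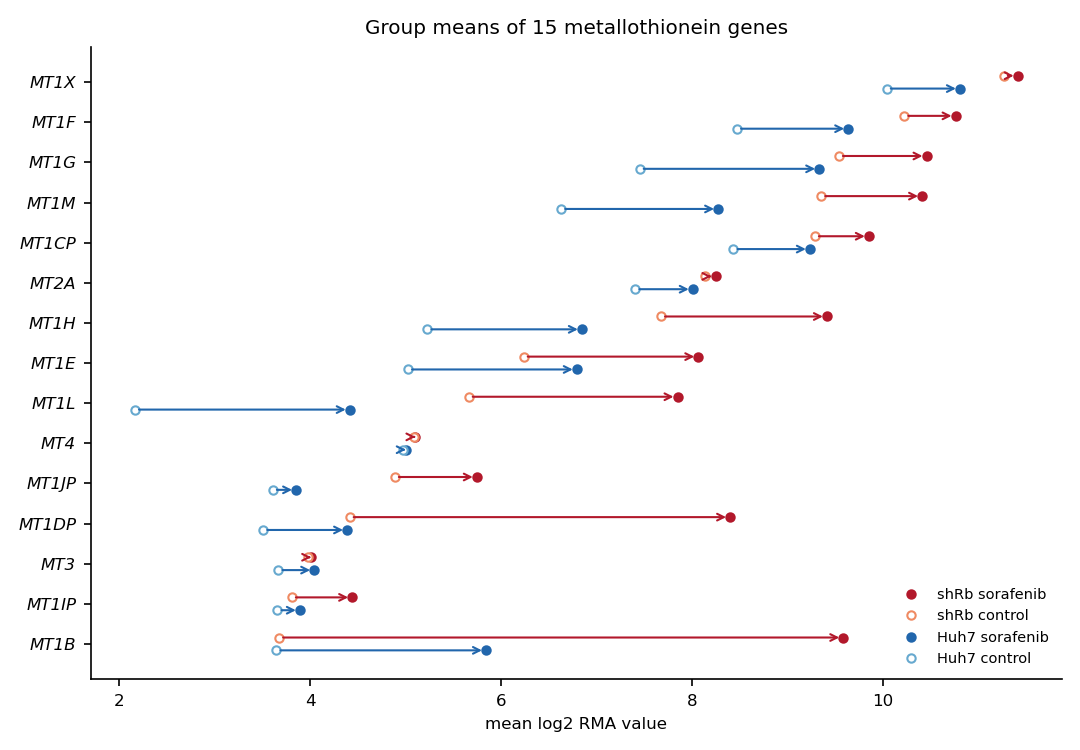
Group means of 15 metallothionein genes (log2 values on the horizontal axis), with an arrow from control (open) to sorafenib (filled) for shRb (red, upper) and Huh7 (blue, lower). The arrows of MT1B and MT1DP are longer in shRb, and those of MT1X and MT1G are longer in Huh7.

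Some genes of zinc transport also had a larger value in shRb, without being called. Of 22 such genes, 4 had a larger value of the effect in shRb at an unadjusted p under 0.05 and none a smaller one, while the median difference was 0.03, with 12 positive and 10 negative. SLC30A2, a zinc exporter, was at 5.82, 5.86 and 6.42 in shRb cells with sorafenib and 3.73, 3.70 and 3.63 in shRb controls, against 4.66 and 4.25 in Huh7 cells with sorafenib and 3.61 and 3.63 in Huh7 controls. The sorafenib arrays lay above the controls in both lines, and the difference was 1.52 (SE 0.27, adjusted p = 0.12, limma). SLC30A1, the zinc exporter of the plasma membrane, rose by 1.42 in shRb (adjusted p = 1.0e-04) and 0.76 in Huh7 (adjusted p = 0.011, limma), a difference of 0.67 that was not called. SLC30A10 had effects of 0.75 in shRb and 0.11 in Huh7.

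Of 26 targets of NRF2, the factor of the antioxidant response, 6 had a larger and 1 a smaller value of the effect in shRb at an unadjusted p under 0.05, with a median difference of 0.01 (13 positive and 13 negative), and none was called. HMOX1, which encodes heme oxygenase, an enzyme that degrades heme, was at 7.37, 7.92 and 7.63 in shRb cells with sorafenib and 5.94, 5.78 and 5.88 in shRb controls, against 6.04 and 5.68 in Huh7 cells with sorafenib and 5.76 and 5.68 in Huh7 controls. It was higher with sorafenib in all shRb arrays, while the Huh7 groups overlapped. The difference was 1.63 (SE 0.24), and its adjusted p of 0.070 from limma missed the threshold. AKR1C2, an aldo-keto reductase, had effects of 0.64 in shRb and -0.65 in Huh7, neither of them called. Its mean was 3.88 in shRb cells with sorafenib. Its means of 3.24 in shRb controls, 2.68 in Huh7 cells with sorafenib and 3.33 in Huh7 controls lay under the median of all clusters. ABCC3, an exporter of conjugates, had effects of -0.55 in shRb and 0.16 in Huh7. SLC7A11, the cystine transporter that feeds glutathione synthesis, had effects of 0.56 and -0.14 in that order of lines (difference 0.70, adjusted p = 0.43, limma). The factor and its inhibitor differed little, with differences of 0.05 for NFE2L2 (95% interval -0.32 to 0.42) and -0.04 for KEAP1 (-0.43 to 0.36). Of 17 genes of ferroptosis and iron handling, 4 had a larger value at an unadjusted p under 0.05 and none a smaller one, among them HMOX1, SLC7A11 and ACSL4 (difference 0.64).

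SLC47A1 was the third gene with a called larger value. It encodes an efflux transporter of organic cations and drugs. Its values were 7.72, 7.59 and 7.80 in shRb cells with sorafenib and 6.73, 6.92 and 6.84 in shRb controls, against 7.00 and 7.19 in Huh7 cells with sorafenib and 7.49 and 7.50 in Huh7 controls. SLC47A1 rose in shRb (effect 0.87, adjusted p = 0.0016), and in Huh7 both sorafenib arrays lay below both controls (effect -0.40, adjusted p = 0.19, limma). The difference of 1.27 (SE 0.16) had an adjusted p of 0.041 from limma and was lost without any one of the 10 arrays, where it lay between 0.064 and 0.20. Of 35 liver transporters and enzymes of drug metabolism, SLC47A1 was the only one called, and 4 had a larger and 5 a smaller value at an unadjusted p under 0.05. SULT2A1, a sulfotransferase of steroids and bile acids, had effects of 1.73 in shRb and 0.69 in Huh7, and CYP1A1, the target of the aryl hydrocarbon receptor, -0.62 in shRb and 0.29 in Huh7.

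Other liver genes appeared among the largest larger values that missed the adjusted threshold at an unadjusted p under 0.001. BAAT, which joins bile acids to amino acids, had effects of 1.46 in shRb and -0.04 in Huh7. ADH6, an alcohol dehydrogenase, had effects of 0.72 and -0.67, AGXT2, a mitochondrial aminotransferase, 0.88 and -0.45, and PLA2G12B, a phospholipase-like protein of lipoprotein secretion, 1.04 and -0.15, each with shRb first. NPPC, a natriuretic peptide, had effects of 1.71 in shRb and 0.15 in Huh7, the antisense RNA UPK1A-AS1 0.94 and -0.31, and BRINP3 0.17 and -1.07. Their adjusted p-values lay between 0.059 for PLA2G12B and 0.22 (limma).

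The 16 genes called with a smaller value all fell in shRb at an adjusted p under 0.05 (limma), and in Huh7 6 of them rose and none fell at that threshold. The signs of the effects were opposite in 14 of the 16, a description, since a large difference favours opposite signs. In controls 12 of the 16 were at a higher mean in shRb than in Huh7, and with sorafenib all 16 were at a lower mean in shRb. Both counts follow in part from the selection, since the difference is the gap between lines with sorafenib minus that in controls. Of the 1132 genes with a smaller value at an unadjusted p under 0.05, 912 were higher in shRb without sorafenib and 129 with it. Of the 26 called clusters, 25 lay above the lower quartile of all clusters on every array and 23 above the median of all clusters, so their values were seldom near the bottom of the arrays.

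Some of these 16 encode proteins of cell contacts and the surface. AKAP12, a scaffold that holds protein kinase A at the membrane, was at 6.16, 6.03 and 5.99 in shRb cells with sorafenib and 7.59, 7.53 and 7.63 in shRb controls, against 7.12 and 6.90 in Huh7 cells with sorafenib and 6.44 and 6.23 in Huh7 controls. The 4 groups did not overlap, and AKAP12 was 2.87-fold lower with sorafenib in shRb and 1.60-fold higher in Huh7 (adjusted p = 1.4e-04 and 0.032, limma). The difference of -2.20 (SE 0.17, adjusted p = 0.0033, limma) held without any single array. Of the 22 genes of protein kinase A signalling, AKAP12 was the only one called, and the median difference of the list was 0.01.

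CD44, the hyaluronan receptor, was at 2.53, 2.98 and 2.91 in shRb cells with sorafenib and 4.06, 3.95 and 3.86 in shRb controls, against 4.64 and 4.82 in Huh7 cells with sorafenib and 3.79 and 3.83 in Huh7 controls. It fell in shRb and rose in Huh7, from controls whose means differed by 0.15 on the log2 scale (difference in effect -2.08, SE 0.21, adjusted p = 0.010, limma). Its sorafenib-exposed shRb values lay below the median of all clusters, and a second cluster of CD44 had a difference of -0.08 (95% interval -0.76 to 0.60). GJA1, a connexin of gap junctions, was at 7.62, 7.57 and 7.44 in shRb cells with sorafenib and 9.51, 9.50 and 9.50 in shRb controls, against 9.10 and 8.85 in Huh7 cells with sorafenib and 9.47 and 9.44 in Huh7 controls. Here both lines moved the same way, with a 3.89-fold fall in shRb and an effect of -0.48 in Huh7 that was not called (adjusted p = 0.089), and the difference was -1.48 (SE 0.16, adjusted p = 0.015, limma).

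**Figure D3:**
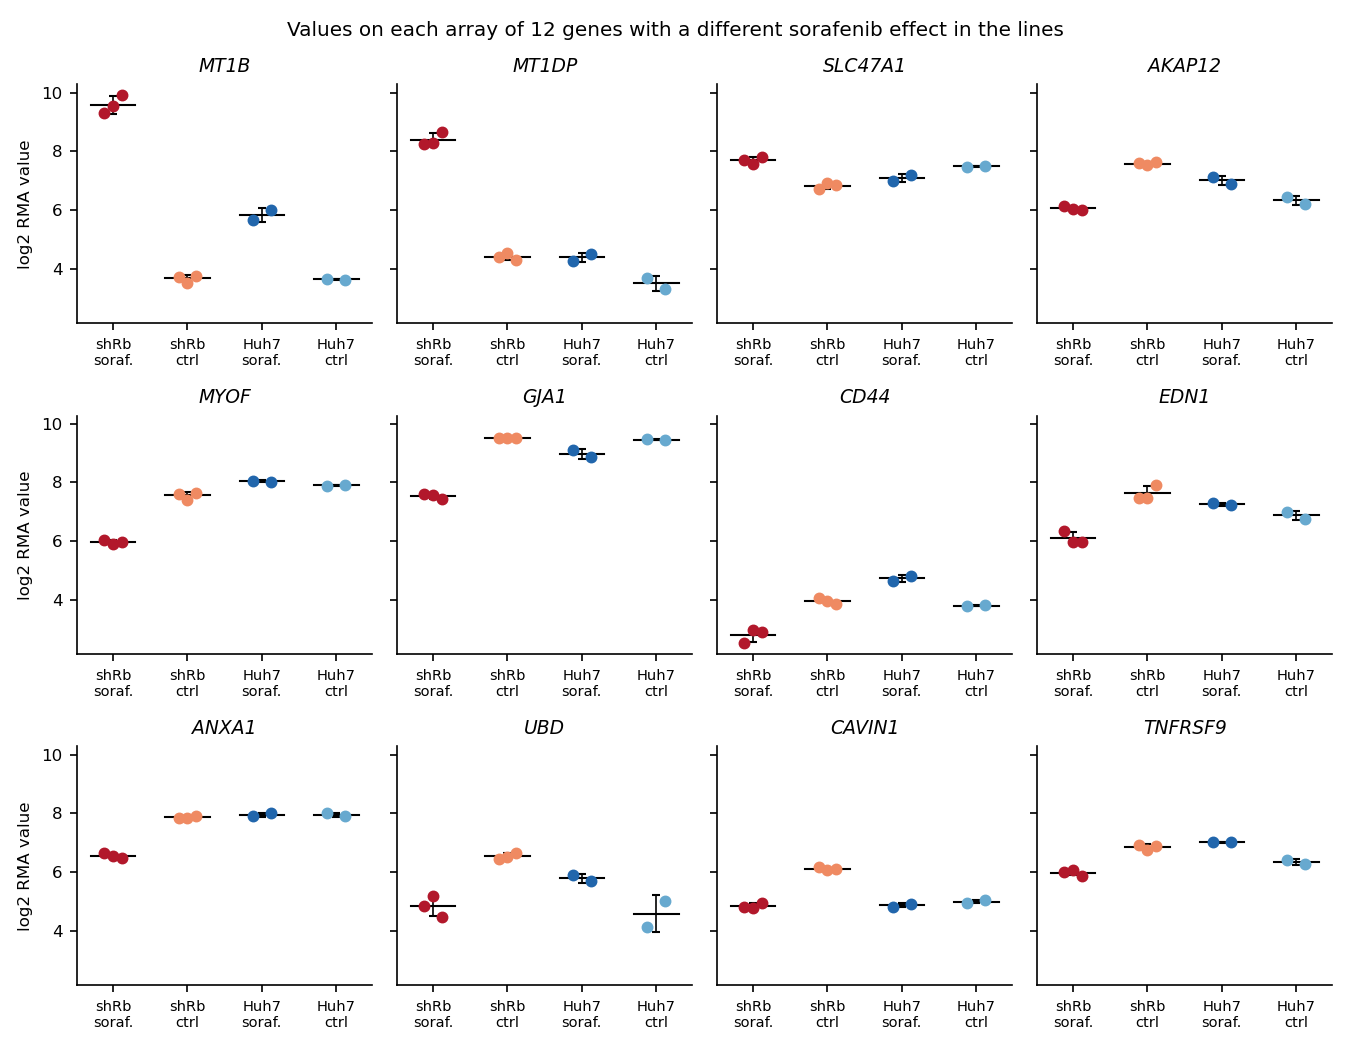
Log2 values on each array (points) of 12 genes called for a different sorafenib effect, by group from shRb with sorafenib to Huh7 control, with the mean (line) and SD (bars). MT1B and MT1DP reach 9.31 to 9.91 and 8.26 to 8.66 in shRb cells with sorafenib, while ANXA1 and CAVIN1 are lower with sorafenib in shRb and nearly level in Huh7.

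Genes of membrane repair, caveolae and the actin cytoskeleton made up another part of the 16. MYOF, a ferlin of membrane repair, was at 6.05, 5.90 and 5.97 in shRb cells with sorafenib and 7.61, 7.41 and 7.65 in shRb controls, against 8.06 and 8.03 in Huh7 cells with sorafenib and 7.89 and 7.91 in Huh7 controls. It fell 3.00-fold in shRb and had an effect of 0.14 in Huh7 (difference -1.73, SE 0.16, adjusted p = 0.0072, limma). CAVIN1, a coat protein of caveolae, was at 4.82, 4.77 and 4.95 in shRb cells with sorafenib and 6.17, 6.07 and 6.11 in shRb controls, against 4.83 and 4.93 in Huh7 cells with sorafenib and 4.96 and 5.04 in Huh7 controls. It was higher in shRb controls than in Huh7 controls, and with sorafenib both lines were at the same level (difference between lines -0.03, adjusted p = 0.95, limma). ANXA1, an annexin that binds membranes with calcium, was at 6.64, 6.57 and 6.48 in shRb cells with sorafenib and 7.83, 7.83 and 7.92 in shRb controls, against 7.91 and 8.00 in Huh7 cells with sorafenib and 8.00 and 7.90 in Huh7 controls, which is a fall in shRb alone (effects -1.30 and 0.01, shRb first). Its relative ANXA3 fell by 0.78 in shRb and rose by 0.78 in Huh7. CNN1, a calponin of actin filaments, had effects of -0.65 in shRb and 0.74 in Huh7, and TMOD1, which caps actin filaments, -0.59 and 0.78. Adjusted p-values of the differences were 0.0098 for ANXA3, 0.020 for ANXA1, 0.030 for CNN1, 0.041 for CAVIN1 and 0.047 for TMOD1 (limma).

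Secreted ligands, receptors and signalling proteins formed the rest. UBD, a ubiquitin-like protein induced by inflammatory cytokines, was at 4.85, 5.19 and 4.49 in shRb cells with sorafenib and 6.45, 6.53 and 6.67 in shRb controls, against 5.91 and 5.69 in Huh7 cells with sorafenib and 4.13 and 5.03 in Huh7 controls. It had the most negative difference of all genes, -2.93 (SE 0.37, adjusted p = 0.038, limma), and the Huh7 controls lay further apart than the arrays of any other group. EDN1, the vasoconstrictor peptide endothelin, was at 6.33, 5.98 and 5.99 in shRb cells with sorafenib and 7.48, 7.48 and 7.92 in shRb controls, against 7.28 and 7.22 in Huh7 cells with sorafenib and 7.00 and 6.77 in Huh7 controls. It fell in shRb, and its Huh7 effect of 0.37 was not called (difference -1.90, SE 0.24, adjusted p = 0.038, limma). TNFRSF9, a costimulatory receptor, had effects of -0.88 in shRb and 0.68 in Huh7, CXCL5, a chemokine of neutrophils, -0.93 and 0.51, and IL31RA, a cytokine receptor, -1.32 and 0.26. S100A3, a calcium-binding protein, had effects of -1.26 in shRb and 0.62 in Huh7, and UBASH3B, a tyrosine phosphatase, -1.28 and 0.09. Adjusted p-values of these differences lay between 0.0098 for TNFRSF9 and 0.042 for S100A3 (limma).

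Calls of single genes differed in how far they rested on 1 array. MT1B, MT1DP and AKAP12 were called without each array in turn. MYOF was called in 6 of the 10 fits that left out 1 array, TNFRSF9, CD44 and ANXA3 in 5, CXCL5 and GJA1 in 3, UBD, EDN1, ANXA1, CNN1, IL31RA and UBASH3B in 1, and S100A3, SLC47A1, CAVIN1 and TMOD1 in none. The sign of the difference was the same for all 19 genes in all of these fits.

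Further genes had large smaller values without being called, at an unadjusted p under 0.001. ACSL5, which activates fatty acids, was at 6.00, 5.88 and 5.33 in shRb cells with sorafenib and 7.47, 7.60 and 7.50 in shRb controls, against 7.74 and 7.42 in Huh7 cells with sorafenib and 7.47 and 7.23 in Huh7 controls (difference -2.02, SE 0.28, adjusted p = 0.058, limma). TGFB1I1, an adaptor of focal adhesions, had effects of -1.51 in shRb and 0.41 in Huh7, OLR1, a receptor of oxidized lipoprotein, -1.40 and 0.18, and EMP3, a membrane protein, -1.23 and 0.27. KYNU, an enzyme of tryptophan breakdown, had effects of -1.01 and 0.47. FJX1, also a member of the YAP and TEAD list, had a difference of -1.35. TGFB2, a ligand of the TGF-beta family, had effects of -1.30 in shRb and 0.04 in Huh7. OR1E2, an olfactory receptor gene, had values of 1.88 to 3.25, all under the median of all clusters, and MIR107 had a difference of -1.59 with an adjusted p of 0.20 (limma).

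Targets of YAP and TEAD leaned towards a smaller value in shRb. Of 24 measured, 2 were called (MYOF and EDN1), and 21 of 24 differences were negative. Over all genes, 0.0716% were called with a smaller value. In the list, 15 had a smaller and 1 a larger value at an unadjusted p under 0.05, against 5.06% and 3.78% of all genes. The median difference was -0.51 against -0.02 over all genes, and the median effect was -0.19 in shRb and 0.19 in Huh7. In shRb 2 of the 24 rose and 11 fell, and in Huh7 3 rose and none fell (adjusted p under 0.05, limma). Besides MYOF and EDN1, TGFB2 had the smallest p. Without any single array, between 11 and 16 of the 24 had a smaller value at an unadjusted p under 0.05, and the median stayed between -0.66 and -0.48. The log2 sum of the 5 biliary markers was 8.56 to 8.71 over shRb arrays with sorafenib and 9.19 to 9.42 over shRb controls. It was 9.29 to 9.30 over Huh7 arrays with sorafenib and 9.55 to 9.61 over Huh7 controls. This sum was lower with sorafenib in both lines, while the list had median effects of -0.19 in shRb and 0.19 in Huh7. The log2 sum of the leukocyte markers was 7.86 to 8.23 over shRb arrays with sorafenib and 7.93 to 8.02 over shRb controls. It was 8.81 to 9.03 over Huh7 arrays with sorafenib and 8.38 to 8.51 over Huh7 controls, so it was higher with sorafenib in Huh7 only. The sum of the fibroblast or stellate markers was lower with sorafenib in Huh7, at 7.025 to 7.109 against 7.131 to 7.217. The part of these sums in the result was not tested.

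The 2 genes of the list whose upstream stretches are printed above had effects of opposite sign. CCN2, a matricellular protein, was at 8.05, 8.00 and 8.07 in shRb cells with sorafenib and 9.10, 9.13 and 9.18 in shRb controls, against 9.07 and 8.94 in Huh7 cells with sorafenib and 9.40 and 9.50 in Huh7 controls. It lay lower with sorafenib in both lines, with effects of -1.09 in shRb and -0.44 in Huh7, of which only that in shRb was called (adjusted p = 2.4e-04 and 0.079, limma). ANKRD1, a cardiac and muscle ankyrin repeat protein, was at 8.65, 8.79 and 8.51 in shRb cells with sorafenib and 8.29, 8.22 and 8.38 in shRb controls, against 7.89 and 7.76 in Huh7 cells with sorafenib and 6.59 and 6.63 in Huh7 controls. It lay higher with sorafenib in both lines, with effects of 0.35 in shRb and 1.21 in Huh7 (adjusted p = 0.093 and 0.0022, limma). The differences of -0.65 and -0.86 were not called (adjusted p = 0.22 and 0.17, limma).

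**Figure D4:**
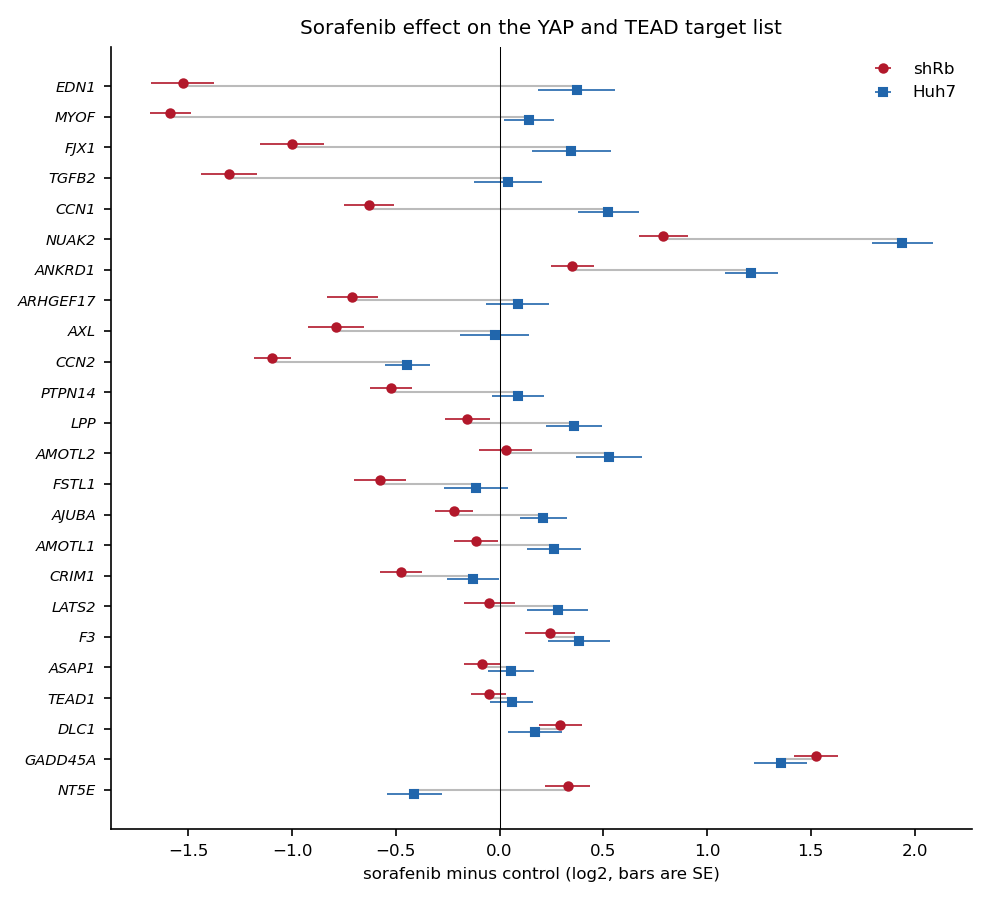
Sorafenib effect (log2, horizontal axis) on 24 targets of YAP and TEAD in shRb (red circles) and Huh7 (blue squares), with SE as bars and genes ordered by the difference. In 21 of the 24 genes the shRb effect lies to the left of the Huh7 effect.

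Mesenchymal genes and genes induced early by BMP, TGF-beta or Notch also had negative medians, with few or no calls of their own. Of 33 mesenchymal and adhesion genes, CD44 was called, and 9 had a smaller and 1 a larger value at an unadjusted p under 0.05 (median difference -0.35). ITGAV, an integrin subunit, had effects of -0.52 in shRb and 0.23 in Huh7, and THBS1, a matrix glycoprotein, -0.51 and 0.13. Of 12 genes induced early by BMP, TGF-beta or Notch, none was called, and 6 had a smaller value at an unadjusted p under 0.05 (median difference -0.55). The median effect was 0.06 in shRb and 0.72 in Huh7, where 7 of the 12 rose (adjusted p under 0.05, limma), against 4 that rose and 1 that fell in shRb. ID3, an inhibitor of bHLH factors, was at 6.69, 7.02 and 6.91 in shRb cells with sorafenib and 6.79, 6.83 and 6.96 in shRb controls, against 7.24 and 7.44 in Huh7 cells with sorafenib and 6.25 and 6.41 in Huh7 controls. It rose in Huh7 (effect 1.01, adjusted p = 0.0096, limma), and the shRb groups overlapped. HES1, a Notch target, had effects of 0.20 in shRb and 1.06 in Huh7, while ID1 had -1.10 and -0.28. Of 15 S100 genes, S100A3 was called and 4 had a smaller value at an unadjusted p under 0.05, among them S100A6 (effects -0.58 in shRb and 0.42 in Huh7). The mesenchymal and S100 lists share 4 genes, among them S100A6, so they are not separate evidence. Of 11 endothelin and vasoactive peptide genes, EDN1, also in the YAP and TEAD list, was called. At an unadjusted p under 0.05, 3 had a smaller value and 1 or 2 without any one array (median difference -0.11, with 4 positive and 7 negative).

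Genes of the output of ERK signalling, which sorafenib opposes, had negative median effects in both lines. Of 21 such genes, 13 fell in shRb and 6 in Huh7 (adjusted p under 0.05, limma), with median effects of -0.63 and -0.40, shRb first. At that threshold 1 gene, HBEGF, rose in each line (effects 0.75 in shRb and 0.67 in Huh7). None of the 21 was called for a difference, and 6 had a smaller and 1 a larger value at an unadjusted p under 0.05 (median difference -0.28). FOSL1, a subunit of the AP-1 factor, had effects of -2.21 in shRb and -1.13 in Huh7, and SPRY4, a feedback inhibitor of the pathway, -1.75 and -0.91. Of 20 immediate early genes, 4 had a smaller value at an unadjusted p under 0.05 and none a larger one, among them CCN1 (effects -0.63 in shRb and 0.52 in Huh7) and KLF10 (0.87 and 1.58). Of 22 NF-kB targets, 5 had a smaller value and none a larger one at that p (median difference -0.27), among them ICAM1, an adhesion molecule (0.13 in shRb and 0.80 in Huh7), and the chemokine CXCL8 (-1.38 and -0.34). In controls, 4 of the 22 were higher in shRb than in Huh7 and none lower (adjusted p under 0.05, limma). The shRb mean minus the Huh7 mean was 0.86 in controls and 0.19 with sorafenib for ICAM1, and 0.89 and -0.15 for CXCL8. Of 27 genes of interferon and antigen presentation, UBD was called and 3 had a smaller value at an unadjusted p under 0.05.

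Cholesterol synthesis leaned the other way. Of 18 genes measured, 17 had a positive difference and 7 a larger value at an unadjusted p under 0.05, with none smaller and none called. Leaving out 1 array gave 4 to 7 such genes, the lowest without Huh7 control replicate 1. The median difference was 0.34, from a median effect of 0.18 in shRb and -0.22 in Huh7. INSIG1, which holds back the sterol-regulated factor SREBP, had effects of 0.15 in shRb and -0.54 in Huh7, MSMO1, a sterol oxidase, 0.27 and -0.49, and HSD17B7, an enzyme of the pathway, 1.00 and -0.12. At the adjusted threshold of limma, 1 of the 18 rose in shRb and none moved in Huh7.

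**Figure D5:**
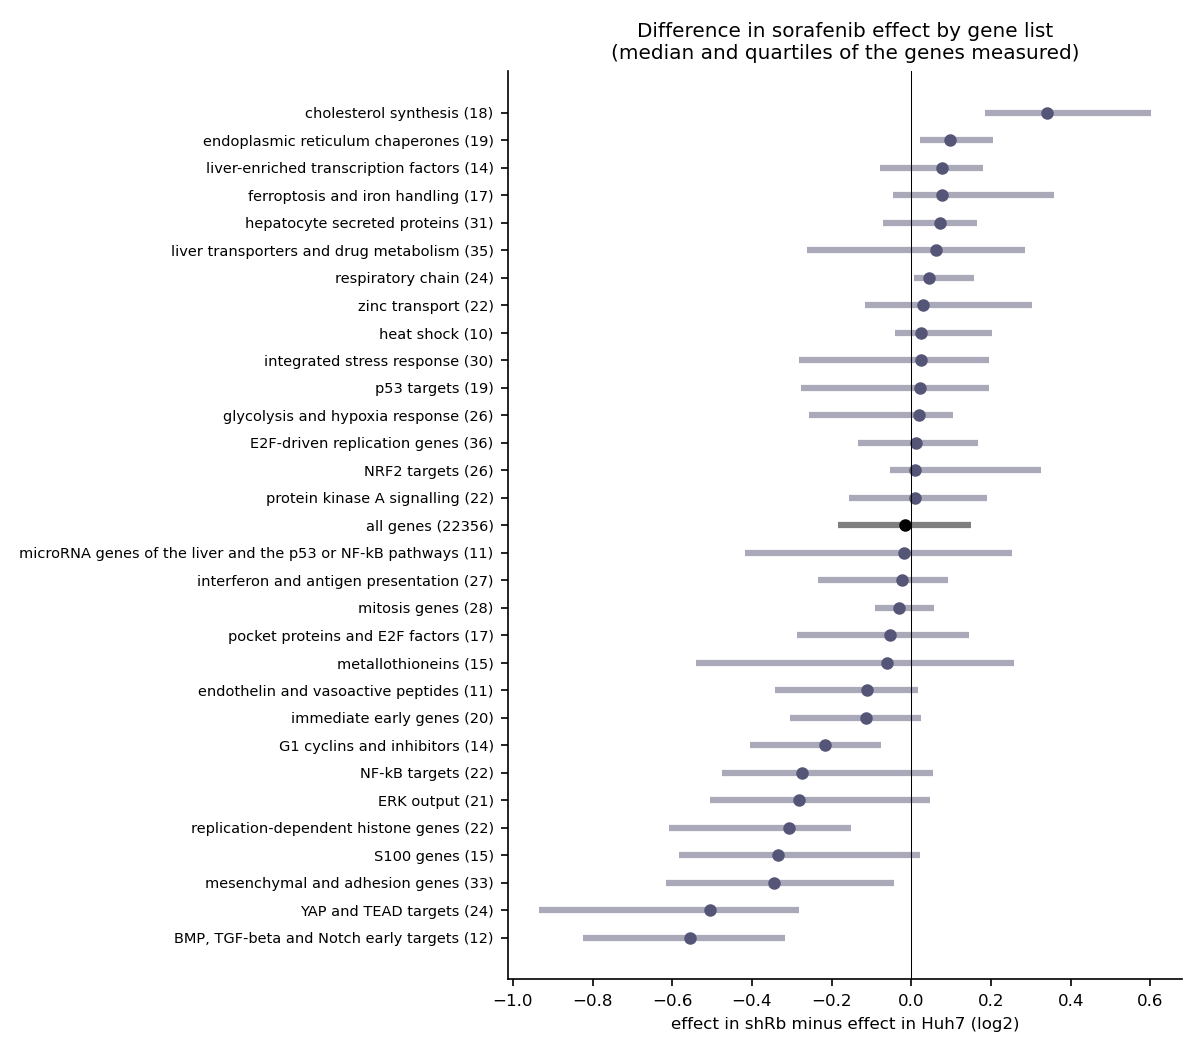
Difference in sorafenib effect (shRb minus Huh7, log2, horizontal axis) for each gene list, with the median (point) and the quartiles of its measured genes (ends of the bar), the number measured in brackets and all genes in black. The lists of BMP, TGF-beta and Notch targets and of YAP and TEAD targets lie lowest, and cholesterol synthesis highest.

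Genes of replication and mitosis had median differences near 0. Of 36 replication genes driven by E2F, none was called and 1 had a smaller value at an unadjusted p under 0.05, with a median difference of 0.01. Of 28 mitosis genes, none reached that p (median difference -0.03). Of 17 pocket protein and E2F factor genes, 1 had a larger and 3 a smaller value at that p, and 0 to 4 a smaller one when 1 array was left out (2 without Huh7 control replicate 1, Huh7 sorafenib replicate 5, shRb control replicates 7 or 9, or shRb sorafenib replicates 10 or 12, 1 without Huh7 sorafenib replicate 6 or shRb control replicate 8, and 0 without Huh7 control replicate 3). The differences were 0.05 for E2F1 (95% interval -0.44 to 0.54), 0.03 for RBL1 (-0.47 to 0.54) and 0.35 for RBL2 (-0.04 to 0.73). Among 14 G1 cyclins and inhibitors, 5 had a smaller value at an unadjusted p under 0.05, with a median difference of -0.22 (2 positive and 12 negative). That 5 became 2 without Huh7 control replicates 1 or 3 or Huh7 sorafenib replicate 5, 3 without Huh7 sorafenib replicate 6, shRb control replicates 7 or 9 or shRb sorafenib replicate 12, and 4 without the others. CDKN1A, the p21 inhibitor, had effects of -0.30 in shRb and 0.28 in Huh7. Replication-dependent histone genes, of which 22 of 55 listed had a cluster of their own, had 7 smaller and 2 larger values (median difference -0.31), among them H2BC13 (effects 0.58 in shRb and 1.66 in Huh7) and H2BC5 (-0.54 and -1.28).

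The integrated stress response rose in both lines, with 16 of 30 genes raised in shRb and 13 in Huh7 (adjusted p under 0.05, limma). Its median difference was 0.02, and 1 gene had a larger and 4 a smaller value at an unadjusted p under 0.05, with ATF3 at 1.44 in shRb and 2.07 in Huh7 and PSPH, an enzyme of serine synthesis, at 0.51 and -0.34. Those 4 became 1 without Huh7 control replicate 3 and 2 without shRb control replicate 9. The remaining lists, with median differences between -0.02 and 0.10 and at most 2 genes each way at an unadjusted p under 0.05, were endoplasmic reticulum chaperones, p53 targets, glycolysis and hypoxia response, heat shock, hepatocyte secreted proteins, liver-enriched transcription factors, the respiratory chain and microRNA genes. The reference genes GAPDH and ACTB had differences of -0.17 (95% interval -0.55 to 0.21) and -0.35 (-0.74 to 0.03).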

How the data were processed

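RNA of the 10 samples was hybridised to Affymetrix HuGene 2.1 ST arrays. The authors deposited log2 values made by RMA in the Affymetrix Expression Console (background correction, quantile normalization and summary by transcript cluster); version and genome build are not given in the sources used here. A probe table gave 23870 of the 53617 clusters 1 gene symbol, 1848 several and 27899 none. Each gene took its brightest cluster with 1 symbol.

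A model with 1 mean for each of the 4 groups (6 residual degrees of freedom) was fitted with lmFit and eBayes of limma 3.58.1 (R 4.3.3), and 1 contrast gave the difference in sorafenib effect. P-values were two-sided and adjusted by Benjamini-Hochberg over all clusters at a threshold of 0.05. The fit was run on simulated arrays with independent noise and known differences. Such arrays cannot show how a shared culture or a pairing of arrays would affect the calls. Labels call the samples biological replicates. Precision rests on how many arrays a group has and on how far the values of a cluster spread within groups. Arrays give no read depth.

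Comparisons, gene lists and members were chosen with earlier results of these data known, and lists are described by counts and medians only. Named were all called clusters with 1 symbol, the 10 largest uncalled differences each way at an unadjusted p under 0.001, the metallothioneins, up to 3 members per list with the smallest p, other clusters of called genes, and RB1, RBL1, RBL2, E2F1, NFE2L2, KEAP1, SLC7A11, GAPDH and ACTB. Of the genes that this rule names, 1 is not reported here. CCN2 and ANKRD1 were added after their values were seen. Alternatives covered the variance model, moderation, dim clusters, normalization, centring, the clusters tested, a replicate block and leaving out each array.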

Additional observations from a re-analysis of the deposited data

Results flagged for a closer look

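The genes below were singled out because the test of the difference in sorafenib effect between the lines passed the adjusted threshold (limma, Benjamini-Hochberg, n = 3 arrays per shRb group and 2 per Huh7 group). The difference, shRb minus Huh7 on the log2 scale, was positive for MT1B (3.715), MT1DP (3.107) and SLC47A1 (1.269). It was negative for UBD (-2.925), AKAP12 (-2.196), CD44 (-2.077), EDN1 (-1.899) and S100A3 (-1.879). MYOF (-1.727), IL31RA (-1.586), ANXA3 (-1.566), TNFRSF9 (-1.559), GJA1 (-1.476) and CXCL5 (-1.442) followed. The remaining differences were those of CNN1 (-1.391), UBASH3B (-1.369), TMOD1 (-1.368), ANXA1 (-1.306) and CAVIN1 (-1.15). With 2 or 3 arrays in a group, no single array was tested as an outlier.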

How the results depend on the processing

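The counts of clusters with a larger and a smaller value of the sorafenib effect in shRb (5 and 21) were 5 and 21 with an ordinary linear model and 5 and 23 after a further quantile normalization or median centring. They were 14 and 37 with a trended and robust variance, 12 and 36 over brighter clusters only, and 18 and 59 over clusters with 1 gene symbol only, where fewer clusters were tested. Leaving out 1 array gave 2 to 4 larger and 1 to 17 smaller values, with fewer samples in each fit. Of the 19 named genes called, 19 kept the call under each of these alternatives except the ordinary linear model (10 kept) and the fits without 1 array, which kept 3 to 13. The named genes without a call that passed the threshold under some alternative included HMOX1, ACSL5 and TGFB1I1. None of the 19 called genes reversed its direction. The rest of the 148 named genes had no call in the main fit, so this check says little about them.

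Control and sorafenib arrays of shRb share replicate numbers in the labels. The deviations of same-numbered arrays had correlations of -0.15, -0.16 and -0.05, and those of arrays with different numbers lay between -0.04 and 0.19. With 3 arrays per group, this cannot decide whether the numbers pair them. With the replicate block in shRb, 1 larger and 0 smaller values were called by limma, and MT1B alone of the 19 genes kept its call. The calls of the others rest on treating the arrays as unpaired.

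Counting clusters with the same value on every array once, an alternative chosen after seeing the data, gave 5 and 21. So was the equal weighting of the lines in the mean response. The share of genes that rose further in shRb lay between 57.57% and 67.26% over the other alternatives. For those that fell further it lay between 54.27% and 67.18%. These ranges kept the weight of 0.6 for shRb, which favours genes that respond in shRb. Equal weights gave 55.9% and 56.05% of genes, and 53.82% and 46.9% of clusters. With 2 Huh7 arrays per group, the median SE of the difference was 0.20. The smallest difference of any gene at an unadjusted p under 0.05 was 0.305, and the smallest called was 1.15. Differences smaller than these are not resolved at those thresholds. Of the 26 called clusters, 1 had a value under the arrays' lower quartile on some array, and 3 had one under the median.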

Other observations

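Of the 26 called clusters, 6 had no gene symbol in the probe table and 1 had several. Cluster 17049714 was at 7.27, 7.32 and 7.35 in shRb cells with sorafenib and 5.41, 5.18 and 5.07 in shRb controls, against 5.26 and 5.47 in Huh7 cells with sorafenib and 5.28 and 5.16 in Huh7 controls. It rose 4.26-fold in shRb, and in Huh7 the groups overlapped (difference 1.95, SE 0.18, adjusted p = 0.0072, limma). Cluster 16967863 was at 5.57, 5.46 and 5.25 in shRb cells with sorafenib and 7.44, 7.45 and 7.55 in shRb controls, against 6.62 and 6.59 in Huh7 cells with sorafenib and 6.79 and 6.78 in Huh7 controls. It fell 4.16-fold in shRb (difference -1.88, SE 0.16, adjusted p = 0.0068, limma).

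Among 11 microRNA genes, MIR4521 was lower with sorafenib in both lines, at means of 1.30 in shRb cells with sorafenib and 2.46 in shRb controls, against 1.47 in Huh7 cells with sorafenib and 3.81 in Huh7 controls. Both sorafenib means lay under the arrays' lower quartile, so the size of its effects is not read. MIR222 had effects of -0.61 in shRb and 0.01 in Huh7. Its difference was not called.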
